A study of Homo sapiens with 4 samples.

Results

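Of the 14300 peaks called in the first of 2 USF1 immunoprecipitations, 609 lay at an end of a protein-coding gene and overlapped no peak of the second. These 609 list 1 only gene-end peaks were chosen by 3 conditions. Each was called in IP 1 against input 1 (list 1), overlapped no peak called in IP 2 against input 2 (list 2) by even 1 bp, and lay on one of the 22 autosomes or X with its centre within 1 kb of a start or end coordinate of a RefSeq protein-coding gene. Both lists together held 41625 peaks, of which list 2 gave 27325. The 609 made up 24.2% of the 2516 gene-end peaks of list 1 (95% Wilson interval 22.6 to 25.9%, counting error only), and the other 1907 were shared with list 2. They touched 705 genes, or 3.53% of the 19970 protein-coding genes on these chromosomes, against 2306 genes (11.5%) for the shared gene-end peaks and 3827 genes (19.2%) for gene-end peaks found in list 2 alone.

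The cells were Huh7, an established human hepatocellular carcinoma line, in which USF1 was overexpressed, and all 4 libraries came from this line. An anti-FLAG antibody was used on crosslinked and sonicated chromatin to obtain IP 1 and IP 2, and input 1 and input 2 were sequenced beside them. The labels number the replicates without saying whether they came from separate cultures, and they do not give the promoter that drove USF1 or whether the cells were a clone. The background against which both lists were called was input chromatin. Neither an IgG precipitation nor one from untagged cells was analysed here.

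USF1 is a basic helix-loop-helix leucine zipper factor that binds DNA as a dimer, with itself or with USF2. Its best known recognition sequence is the palindromic E-box CACGTG, which it shares with MYC and MAX, with the MiT/TFE factors of lysosomal genes and with the clock factors. In liver, USF factors are known for glucose- and insulin-responsive control of lipogenic and glycolytic genes. USF sites often lie in promoters close to the transcription start.

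The E-box is the sequence that a USF1 precipitation would be read against, so promoter windows of the strongest list 1 only peaks are shown first, and those of 2 shared peaks beside them. Each window is RefSeq sequence of GRCh38.p14, runs 5′ to 3′ on the gene's strand from 250 bases before an annotated gene start to 50 bases after it, and holds the summit of the peak. Capitals mark CACGTG. The 4 list 1 only peaks of highest fold with the hexamer in that window lay at CAPN10, a calpain protease gene (chr2:240586484-240586783, plus strand), at SELENOH, a nucleolar selenoprotein gene (chr11:57741241-57741540, plus strand), at TSPAN6, a tetraspanin gene (chrX:100637055-100637354, minus strand) and at GIMAP2, a GTPase gene of the immunity-associated family (chr7:150685456-150685755, plus strand).
CAPN10: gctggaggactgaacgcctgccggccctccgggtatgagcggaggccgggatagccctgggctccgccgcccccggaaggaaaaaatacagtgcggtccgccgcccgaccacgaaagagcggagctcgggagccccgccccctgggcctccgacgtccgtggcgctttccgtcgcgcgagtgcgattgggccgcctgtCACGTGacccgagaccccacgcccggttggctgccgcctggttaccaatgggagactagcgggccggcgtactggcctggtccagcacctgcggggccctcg
SELENOH: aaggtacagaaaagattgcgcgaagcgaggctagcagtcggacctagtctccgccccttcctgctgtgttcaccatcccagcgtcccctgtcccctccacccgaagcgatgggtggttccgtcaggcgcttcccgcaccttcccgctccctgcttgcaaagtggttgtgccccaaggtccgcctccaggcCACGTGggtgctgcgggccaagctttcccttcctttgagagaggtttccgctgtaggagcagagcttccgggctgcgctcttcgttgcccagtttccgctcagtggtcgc
TSPAN6: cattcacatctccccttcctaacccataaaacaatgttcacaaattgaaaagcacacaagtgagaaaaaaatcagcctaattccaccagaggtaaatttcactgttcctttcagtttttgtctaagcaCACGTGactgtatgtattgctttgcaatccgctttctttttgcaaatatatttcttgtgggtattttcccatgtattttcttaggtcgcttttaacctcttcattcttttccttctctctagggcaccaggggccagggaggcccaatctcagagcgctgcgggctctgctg
GIMAP2: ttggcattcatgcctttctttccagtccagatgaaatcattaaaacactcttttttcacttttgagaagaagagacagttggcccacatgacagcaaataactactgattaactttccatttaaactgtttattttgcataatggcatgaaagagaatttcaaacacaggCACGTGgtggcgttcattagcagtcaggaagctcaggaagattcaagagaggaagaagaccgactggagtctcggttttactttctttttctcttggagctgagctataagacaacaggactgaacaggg
The hexamer began 52 bases before the start in CAPN10, 60 before it in SELENOH, 122 before it in TSPAN6 and 80 before it in GIMAP2, once per window. In CAPN10 and TSPAN6 it was part of the longer form TCACGTG on at least 1 strand.

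The 2 highest folds among windows without the hexamer belonged to MACROD2, which encodes an ADP-ribose hydrolase (chr20:13995266-13995565, plus strand), and to EIPR1, which encodes a partner of an endosomal recycling complex (chr2:3377769-3378068, minus strand). They exceeded all 4 windows above in fold and are shown in lower case throughout, since there was nothing to mark.
MACROD2: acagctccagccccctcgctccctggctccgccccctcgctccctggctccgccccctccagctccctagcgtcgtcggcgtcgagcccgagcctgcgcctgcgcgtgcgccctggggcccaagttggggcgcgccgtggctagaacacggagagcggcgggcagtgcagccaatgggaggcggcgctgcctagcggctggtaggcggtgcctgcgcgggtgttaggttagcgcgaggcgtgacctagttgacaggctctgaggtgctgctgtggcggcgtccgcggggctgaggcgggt
EIPR1: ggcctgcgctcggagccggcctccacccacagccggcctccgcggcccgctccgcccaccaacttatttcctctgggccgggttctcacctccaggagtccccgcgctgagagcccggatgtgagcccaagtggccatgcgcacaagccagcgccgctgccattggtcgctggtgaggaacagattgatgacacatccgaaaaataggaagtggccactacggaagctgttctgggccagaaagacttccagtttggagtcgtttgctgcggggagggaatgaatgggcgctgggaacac
For contrast, the 2 shared gene-end peaks with the hexamer that stood highest by the lower of their 2 folds lay at CLCN7, a lysosomal chloride-proton exchanger gene (chr16:1474979-1475278, minus strand), and at AMDHD2, an amino sugar deacetylase gene (chr16:2520121-2520420, plus strand).
CLCN7: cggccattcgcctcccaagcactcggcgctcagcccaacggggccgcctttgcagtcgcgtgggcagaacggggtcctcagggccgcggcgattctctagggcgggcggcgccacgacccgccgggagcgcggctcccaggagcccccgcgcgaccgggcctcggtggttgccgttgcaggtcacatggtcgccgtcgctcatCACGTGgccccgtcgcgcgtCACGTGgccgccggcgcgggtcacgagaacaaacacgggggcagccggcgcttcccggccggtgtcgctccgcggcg
AMDHD2: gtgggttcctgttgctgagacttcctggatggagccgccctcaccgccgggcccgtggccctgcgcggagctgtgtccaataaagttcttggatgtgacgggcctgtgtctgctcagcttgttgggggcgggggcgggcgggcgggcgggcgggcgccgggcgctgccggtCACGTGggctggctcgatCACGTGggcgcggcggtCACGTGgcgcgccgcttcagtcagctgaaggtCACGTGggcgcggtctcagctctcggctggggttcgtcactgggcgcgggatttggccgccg
CLCN7 held 2 copies and AMDHD2 held 4, all within 79 bases before the start. CLCN7 had a fold of 34.25 in list 1 and AMDHD2 one of 32.99. The window at CAPN10 held 1 copy under a peak of 9.83-fold.

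The list 1 only gene-end peaks were low and narrow beside the shared ones. Each peak carries a count of IP 1 tags, a width, a fold of IP tags over the number the peak caller expected from input and local background, and a false discovery rate (FDR), all as the authors deposited them. Because a peak had to escape overlap with list 2 to be chosen, these values describe the set and no test was made on them. The median list 1 only gene-end peak held 52 tags (quartiles 40 and 69, range 20 to 175), and the median shared one 85 (60 and 123, range 22 to 495). Of the 609, 515 lay below the shared median in tags (84.6%, 81.5 to 87.2%). The tag counts nevertheless overlapped over most of their range.

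Widths followed the same order. The list 1 only peaks had a median width of 860 bp (quartiles 689 and 1084, range 335 to 2535 bp), and the shared ones 1088 bp (876.5 and 1398, range 382 to 4950 bp). In width 459 of the 609 lay below the shared median (75.4%, 71.8 to 78.6%). Wider peaks collect more tags by their width alone, so tags were also taken per kb: the medians were 60.4 tags per kb for list 1 only peaks and 74.7 for shared ones. Across the 609 peaks, tags and width went together with a Spearman's rho of 0.91, while width and fold had a rho of -0.43. These are descriptions across peaks that share 1 library, and peaks are not replicates. The widest list 1 only peaks were not the highest in fold.

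In fold the sets differed mainly at the upper end. The median fold was 5.16 in the list 1 only peaks (quartiles 4.49 and 6.16, range 2.70 to 11.29) and 5.69 in the shared peaks (4.57 and 7.61, range 2.98 to 60.28). A fold of at least 8 was reached by 20 of the 609 (3.28%, 2.14 to 5.02%), against 411 shared gene-end peaks (21.6%, 19.8 to 23.5%) and 15.6% of all list 1 peaks. The lower quartiles nearly coincided.

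**Figure D1:**
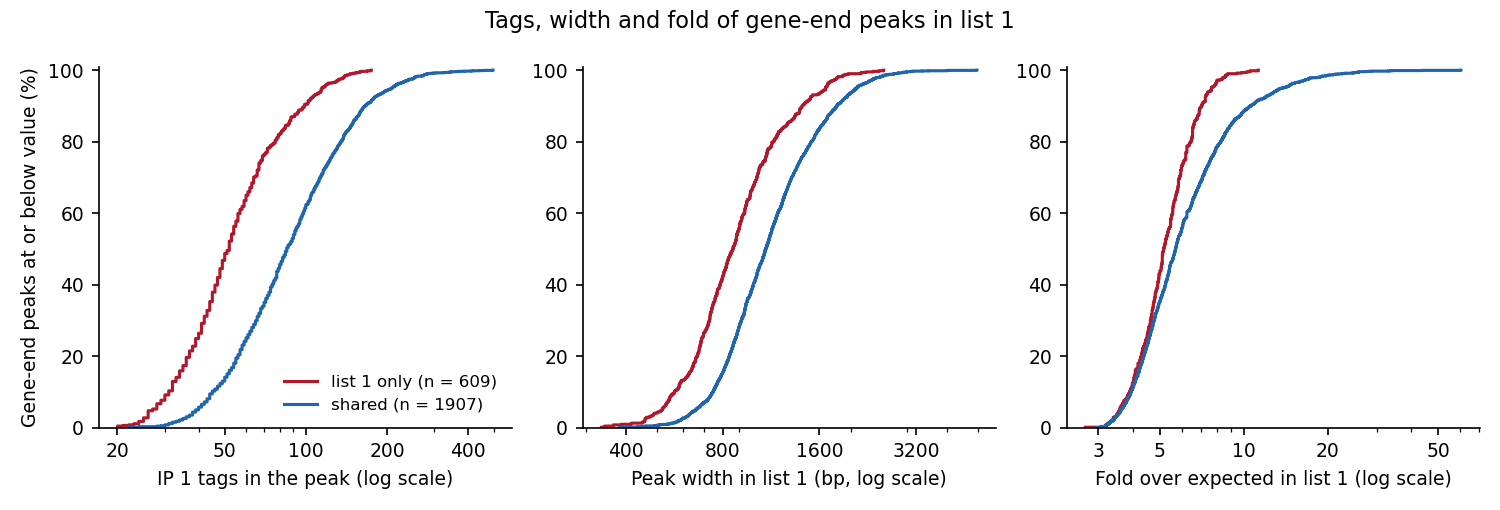
Cumulative share of gene-end peaks (percent, y axis) at or below a given number of IP 1 tags, width in bp or fold over expected (x axes, log scale), for the 609 list 1 only peaks (red) and the 1907 shared peaks (blue). The red curves lie to the left in tags and width, with medians of 52 against 85 tags and 860 against 1088 bp, while the fold curves run together up to about their lower quartile and then part.

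The caller estimates the FDR by swapping IP and input, and its deposited values stop at 100%. In 403 of the 609 list 1 only gene-end peaks the FDR stood at that ceiling (66.2%, 62.3 to 69.8%), against 713 shared ones (37.4%, 35.2 to 39.6%) and 64.3% of all list 1 peaks. Only 13 had an FDR of at most 25% (2.13%, 1.25 to 3.62%), where all list 1 peaks gave 7.62% and the shared gene-end peaks 24.0%. None had one of at most 5%, a level that 178 shared gene-end peaks reached. The share at the ceiling was thus near that of list 1 as a whole, while low FDRs were rarer in the set than in list 1. List 1 only peaks away from gene ends had an FDR of at most 25% about as rarely (207 of 8349, 2.48%, 2.17 to 2.84%). An absence from list 2 is an absence of a call at p of 1e-05, since IP 2 tags at these places were not analysed here. The 3344 gene-end peaks of list 2 alone had a median FDR of 6.38% at a median of 71 tags, but the 2 lists' FDRs come from separate swaps and are not compared.

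List 1 only peaks away from gene ends made a second reference within the same list. These 8349 peaks held a median of 38 tags over 700 bp, fewer tags and a smaller width than the 609 at gene ends, but a median fold of 5.71. Their FDR stood at 100% in 75.7%. The stretch of chromosome 5 from 10 to 50 Mb, which held 1366 list 1 peaks, contributed none of the 609.

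Among the single peaks, the highest folds belonged to ZNF804B, to the facing ends of SEL1L2 and MACROD2 and to EIPR1, followed by DAZAP1, an RNA-binding protein gene (chr19:1407017-1407802), at 10.20-fold with 39 tags. CAPN10 (chr2:240586428-240587067) had 9.83-fold with 40 tags over 640 bp. RAB5C, which encodes a small GTPase of early endosomes, had 8.75-fold with 54 tags (chr17:42154720-42155463). MED4, which encodes a subunit of the Mediator complex, had 8.74-fold with 39 tags (chr13:48094802-48095385). All 4 held fewer tags than the shared median and had an FDR between 46.95% (MED4) and 100% (DAZAP1).

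ZNF317, a zinc finger protein gene, combined a high fold with many tags. Its peak (chr19:9139654-9141040) had 102 tags, 8.63-fold and an FDR of 6.93%, the lowest of the 609, and the nearest list 2 peak lay 168273 bp away. RNASEH1, whose product removes RNA from RNA-DNA hybrids, followed with 94 tags, 6.25-fold and an FDR of 7.25%. EIF1, a factor for start codon choice in translation, had 114 tags, 5.55-fold and an FDR of 7.48%. At the neighbouring ends of BSN, a presynaptic scaffold gene, and APEH, an acylpeptide hydrolase gene, the peak had 132 tags, 6.94-fold and an FDR of 9.86%. These peaks exceeded the shared median in tags, width and, except for EIF1, fold.

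The most tags were found in broad peaks of low fold. CCN1, which encodes a secreted matrix-associated protein, had 175 tags over 2447 bp at 4.17-fold with an FDR of 100%. USP1, a deubiquitinase of DNA repair, had 169 tags over 2535 bp at 4.01-fold, and HGH1, a gene for a chaperone of elongation factor 2, 160 tags over 2144 bp at 4.65-fold. RAB29, a small GTPase of the Golgi and lysosomes, had 158 tags over 2226 bp at 5.36-fold. SWAP70, an actin-binding exchange factor gene, had 154 tags over 1687 bp at 5.19-fold. Each of the 5 was below the shared median in fold.

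Gene classes were read as the share of their genes with a list 1 only gene-end peak, beside the 3.53% over all protein-coding genes and beside the share with a shared peak. Of 37 classes, 17 had a share above 3.53%, 13 had no gene in the set, and in 4 the whole counting interval lay above 3.53%: histones, C2H2 zinc fingers, translation initiation factors and the TMEM family. With 37 classes read side by side and no test made, these 4 are a description. Of the 705 genes, 563 belonged to no class.

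In the E-box pathways that USF1 shares with other factors, list 1 only counts were too small to set apart from the 3.53% of all genes. Shared peaks (11.5%) and peaks of list 2 alone (19.2%) touched more genes over all genes too. Among 66 lysosome and autophagy genes, 28 had a shared peak (42.4%), 15 one in list 2 alone and 3 a list 1 only peak (4.55%, 1.56 to 12.5%). IDUA, the lysosomal iduronidase, had 7.25-fold with 69 tags and an FDR of 26.97%. WIPI2, a phosphoinositide reader in autophagosome formation, had 5.29-fold with 48 tags. No gene of the vacuolar ATPase (24 genes, 8 with a shared peak and 9 with one in list 2 alone), the clock (25 genes, 9 and 5) or the bHLH-ZIP factors (23 genes, 6 and 8) was in the set. These zero counts have intervals up to 13.8%, 13.3% and 14.3%, which cover 3.53%. USF1 and USF2 had no gene-end peak in either list.

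Stress and growth genes were present in small numbers. Of 35 unfolded protein response and ERAD genes, 3 had a list 1 only peak and 14 a shared one. TRIB3, a stress-induced pseudokinase, had 7.37-fold with 36 tags, CRELD2, a chaperone of the endoplasmic reticulum, 5.68-fold with 46 tags, and OS9, a lectin of ERAD, 4.53-fold with 60 tags. Of 47 ribosome biogenesis and growth genes, UTP6 (4.62-fold) and GNL3 (4.58-fold) were members, with 14 genes under shared peaks. The bZIP factors gave BACH1, a heme-regulated repressor, at 5.16-fold and FOS, a subunit of AP-1, at 4.02-fold, both with an FDR of 100%. In each of these 3 classes more genes had a shared peak than a list 1 only one, as over all genes (11.5% against 3.53%). Their list 1 only shares were, in this order, 8.57% (2.96 to 22.4%), 4.26% (1.17 to 14.2%) and 3.92% (1.08 to 13.2%). Each interval covers 3.53%.

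Lipid and glucose metabolism, the programme for which USF factors are known in liver, gave 2 of 57 genes (3.51%), at the level of all genes, and 14 shared. IDI1, an isomerase of sterol synthesis, had 6.19-fold with 49 tags at an end that faces WDR37. CCNB2 (4.61-fold) and E2F3 (4.23-fold) were the 2 of 39 cell cycle and p53 genes, and POLB (3.71-fold) the 1 of 51 DNA repair genes, of which 16 had a shared peak. CCNB2, E2F3 and POLB each had an FDR of 100%.

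The lists of initiation factors and of cytosolic and mitochondrial ribosomal proteins stood above the share of all genes by differing margins. Of 55 translation initiation factor genes, 5 had a list 1 only peak (9.09%, 3.95 to 19.6%), and 20 a shared one (36.4%). Besides EIF1 they included EIF4E2, a cap-binding protein gene, at 5.83-fold with 30 tags and EIF6 at 4.50-fold with 83 tags. EIF3I had 4.78-fold with 57 tags at its 3′ end and 4.42-fold with 66 tags at its other end, beside TMEM234. Cytosolic ribosomal proteins gave 6 of 86 genes (6.98%, 3.24 to 14.4%) and 12 shared. RPL27 stood highest at 8.37-fold with 41 tags, and RPS10 (6.42-fold), RPL19 (5.48-fold) and RPLP0 (4.52-fold) followed. Mitochondrial ribosomal proteins gave 4 of 77 genes, led by MRPS31 at 6.55-fold. Oxidative phosphorylation gave 3 of 86, led by ATP5MJ, an ATP synthase subunit gene, at 7.89-fold with 34 tags. The interval of the initiation factors alone among these 4 classes lay above 3.53%.

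Trafficking and protein turnover classes had few members each. The RAB GTPases gave 5 of 63 genes (7.94%, 3.44 to 17.3%) and 16 shared, with RAB5C and RAB29 described above and RAB35 at 5.38-fold. Ubiquitin-specific proteases gave 5 of 76 (6.58%) and 6 shared. USP11 had 6.55-fold with 55 tags and USP48 5.36-fold with 45 tags. The proteasome gave 3 of 48 and 5 shared, and the bidirectional end between its subunit gene PSMA2 and MRPL32 had 3.92-fold with 72 tags. In the TMEM family, named for transmembrane segments and not for a common function, 14 of 232 genes were members (6.03%, 3.63 to 9.87%) and 27 were shared (11.6%). Of these, TMEM255A had 7.29-fold at an end next to ZBTB33, and TMEM259 6.82-fold with 63 tags. Solute carriers gave 15 of 380 genes (3.95%, 2.41 to 6.41%), close to all genes, among them SLC7A11, the cystine transporter gene, at 6.55-fold with 34 tags.

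Several large families and all cell type marker lists were below the share of all genes. Among them, only the intervals of the olfactory receptors and the keratins lay wholly below it. Olfactory receptors gave 5 of 392 genes (1.28%, 0.546 to 2.95%), and 3 shared. OR2G2 had 7.28-fold with 38 tags and OR2M2 7.16-fold with 30 tags. Potassium channels gave 3 of 95 genes (3.16%, 1.08 to 8.88%) and no shared one, with KCNQ3 at 6.98-fold, KCNA1 at 6.55-fold with 21 tags, and KCNAB2 at 5.05-fold. None was found among 38 hepatocyte, 58 synaptic and neuronal adhesion, 20 immune cell, 20 fibroblast and endothelial or 16 erythroid genes. The intervals of these marker lists reach 9.18%, 6.21%, 16.1%, 16.1% and 19.4%, in this order, and cover the share of all genes. There was also none among 149 keratin, 39 HOX, 73 TRIM, 44 collagen or 24 DHHC palmitoyltransferase genes. The interval of the keratins (up to 2.51%) lay below that share. Those of the other families (up to 8.97%, 5.00%, 8.03% and 13.8%) cover it. The hepatocyte genes had no shared peak either, whereas 8 of the HOX genes did.

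**Figure D2:**
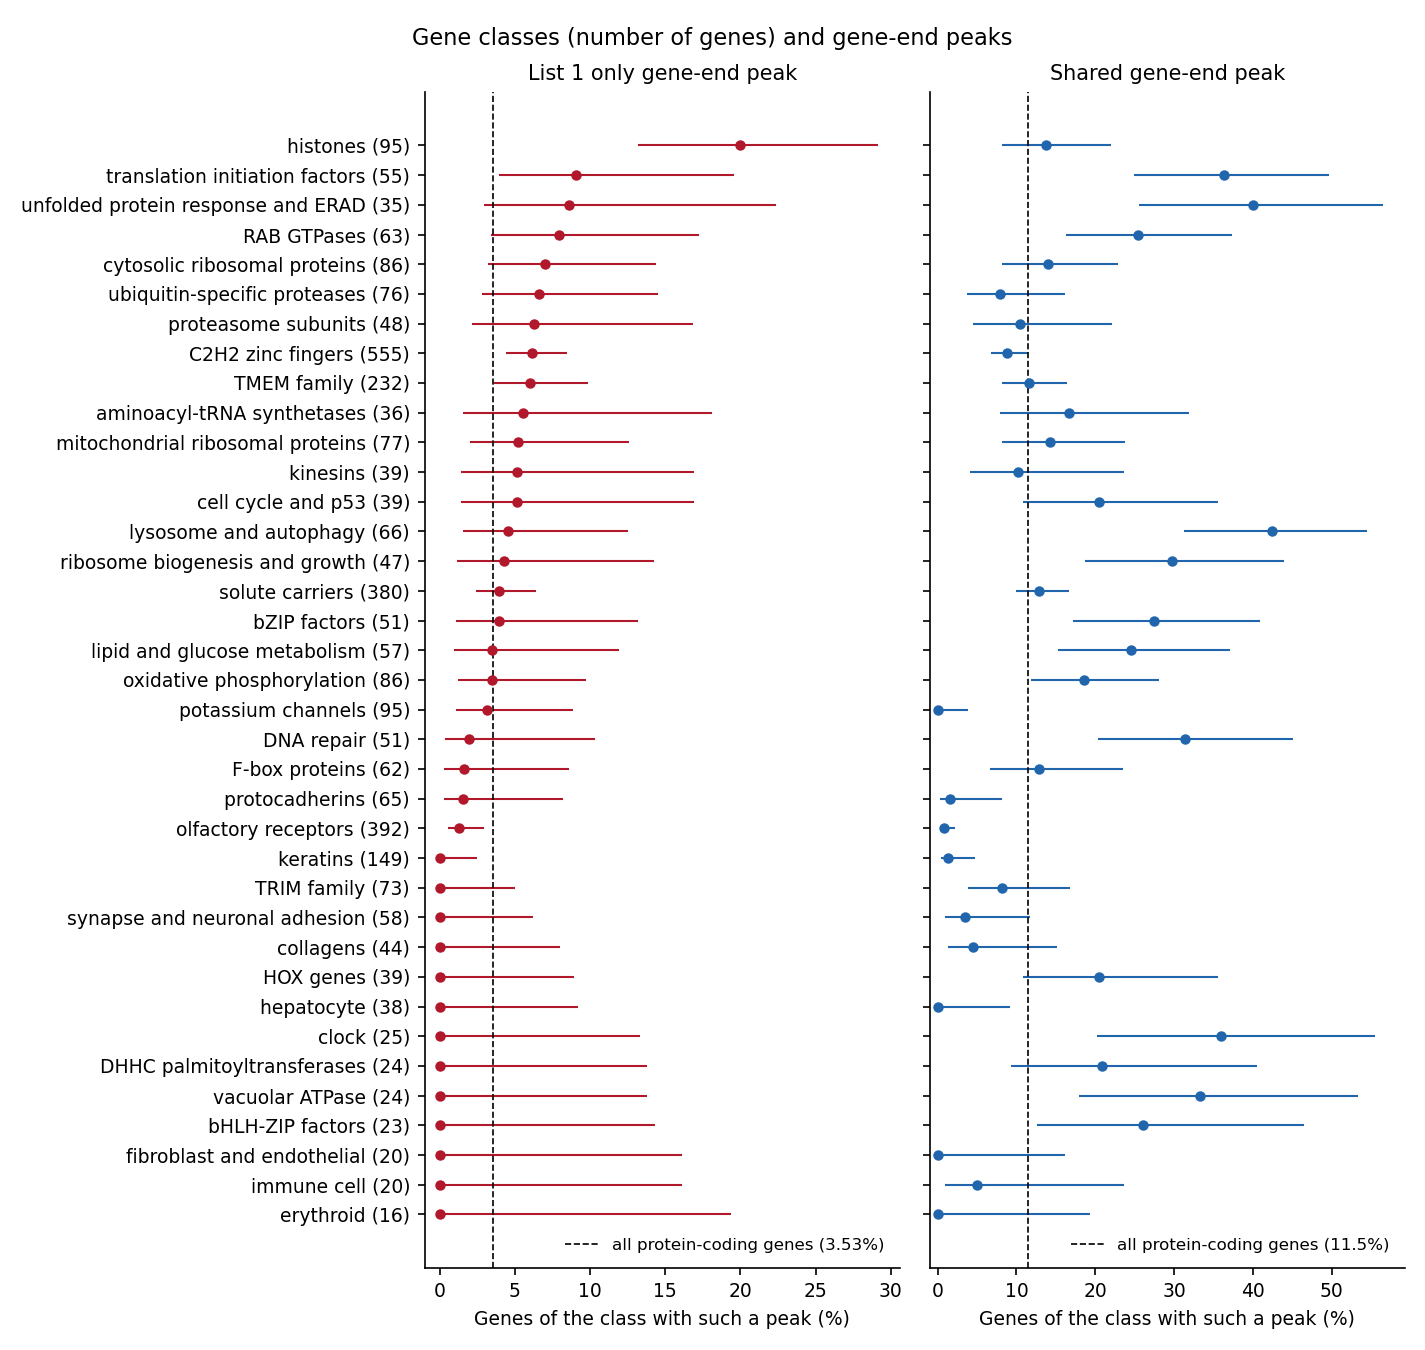
Percent of the genes of each of 37 classes (rows, number of genes in parentheses) with a list 1 only gene-end peak (left, red) and with a shared one (right, blue). Lines are 95% Wilson intervals and the dashed lines mark the share over all protein-coding genes, 3.53% and 11.5%. Histones stand highest on the left at 20%, while lysosome and autophagy genes stand highest on the right at 42.4%.

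Histone genes had the highest share of any class in the set. Of 95, 19 had a list 1 only gene-end peak (20%, 13.2 to 29.1%), 13 a shared one (13.7%, 8.17 to 22%) and 12 one in list 2 alone. Core histone genes lie in clusters, often as pairs read in opposite directions from a common promoter, so the 19 genes came from 12 peaks, 10 of them on chromosome 6. Counted by the nearest gene alone, 11 histone genes remained. The 12 peaks held 24 to 130 tags (median 51.5) over 458 to 1693 bp (median 773), with a fold of 3.39 to 7.67 (median 5.51). Their tags and widths thus lay within the range of the other list 1 only peaks.

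The highest histone folds were found at pairs of H2A and H2B genes. The end shared by H2AC17 and H2BC17 (chr6:27892940-27893669) had 7.67-fold with 69 tags and an FDR of 26.88%. H2AC6 with H2BC4 (chr6:26123819-26124375) had 7.63-fold with 51 tags and an FDR of 21.48%, and H2AC8 with H2BC8 (chr6:26216310-26217684) 6.53-fold with 93 tags and an FDR of 13.52%. H2AC7, H2BC7 and H3C4 shared a peak of 6.55-fold with 41 tags. Lower folds were found at H2BC11 (5.65-fold), H1-4 (5.36-fold), H2AC15 with H2BC15 (5.23-fold), H2AC4 (4.69-fold), H2AC20 with H2AC21 (4.00-fold), H2BC3 (3.61-fold) and H4C8 (3.39-fold). In 6 of the 12 the FDR was 100%.

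List 2 peaks lay close to many of these histone peaks. Within 1 kb of its edge, 6 of the 12 had a list 2 peak, against 24 of the other 597 (4.02%, 2.72 to 5.91%). Beside H2AC15 and H2BC15 a list 2 peak of 77 tags and 3.60-fold lay 170 bp away, beside H2AC20 and H2AC21 one of 58 tags and 3.96-fold 142 bp away, and beside H2AC7 one of 31 tags and 5.03-fold 327 bp away. H2BC3, H2BC11 and the H2AC8 pair had list 2 neighbours at 432, 416 and 946 bp. The list 2 neighbours of H2AC20 with H2AC21, of H2BC3 and of H2BC11 overlapped another list 1 peak. Those of H2AC15, H2AC7 and H2AC8 overlapped none. With these peaks left out, 8 histone genes remained of the 19. Histone genes are similar copies of one another, so how reads were divided among them depends on the mapping, and these values are uncertain for that reason. The read files that the headers name are called unique.

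The window at H2BC8 is shown as an example of a histone promoter in the set (chr6:26216639-26216938, minus strand). Its capitals mark CCAAT or the reverse complement ATTGG, since no window of a histone gene held CACGTG.
H2BC8: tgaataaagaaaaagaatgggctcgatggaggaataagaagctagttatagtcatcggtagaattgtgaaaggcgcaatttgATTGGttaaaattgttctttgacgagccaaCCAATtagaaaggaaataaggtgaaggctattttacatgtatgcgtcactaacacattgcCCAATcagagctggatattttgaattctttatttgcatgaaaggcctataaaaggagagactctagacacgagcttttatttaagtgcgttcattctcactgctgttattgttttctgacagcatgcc
CCAAT occurred 3 times, beginning 168, 138 and 78 bases before the start. Among all 95 histone promoter windows, 0 held CACGTG (up to 3.89% by the interval), 80 held CCAAT (84.2%) and 52 held TATAAA (54.7%), against 8.34%, 34.6% and 9.46% of the 22131 windows of all protein-coding genes. In the 9 windows that held the summit of a list 1 only histone peak the counts were 0, 8 and 5. The hexamer CACGTG was thus missing from these windows with or without a peak. The looser E-box CANNTG (N for any base) was found in 63 of the 95 (66.3%), against 65.1% of all windows.

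C2H2 zinc finger genes were the largest class by number. Of 555, 34 had a list 1 only peak (6.13%, 4.42 to 8.44%), and 49 a shared one (8.83%, 6.74 to 11.5%), the latter below the 11.5% of all genes. They are DNA-binding proteins, many of them repressors of transposable elements, and many lie in chromosome 19 clusters. Of the 34, 14 were on chromosome 19, where 258 of the 555 lie. The peaks had 24 to 150 tags (median 49.5) and a fold of 3.07 to 11.29 (median 4.84). After ZNF804B and ZNF317, ZNF141 (7.65-fold, 30 tags) and ZNF765 (7.31-fold, 26 tags) stood highest. The zinc finger peaks were thus typical of the set in tags and slightly lower in median fold.

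The rule takes either end of a gene, and which end was not part of the choice. Strand was known from the promoter table for the nearest gene of 509 of the 609 peaks. A 3′ end was nearest in 66 of the 509 (13.0%, 10.3 to 16.2%), in 52 of 1634 shared gene-end peaks (3.18%, 2.44 to 4.15%) and in 230 of 2765 found in list 2 alone (8.32%, 7.35 to 9.41%). The 3 intervals do not overlap. Where every gene end within 1 kb had a strand and none was a 5′ end, the shares were 12.2%, 2.51% and 7.24%. Peaks are not replicates, so no p is given.

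At 3′ ends the list 1 only peaks were smaller in tags and width and higher in fold than at 5′ ends, and the shared peaks had the same order. The 66 peaks there had medians of 36 tags, 667 bp and 5.66-fold, and the 443 at 5′ ends 54 tags, 884 bp and 5.10-fold. The shared peaks had medians of 74 tags, 955 bp and 5.995-fold at 3′ ends and 85 tags, 1090 bp and 5.68-fold at 5′ ends. The 3′ end values of the list 1 only peaks are nearer to those of list 1 only peaks away from gene ends (38 tags, 700 bp and 5.71-fold). The median distance of the centre from the end was 453 bp at 3′ ends and 122 bp at 5′ ends, and 488 and 143 bp in the shared peaks. Of those with no other end nearby, LOC124903090 (8.62-fold, 42 tags), a peak at LOC105372204 (7.95-fold, 39 tags), C9orf153 (7.88-fold, 37 tags), ZNF141 and MPDZ, which encodes a scaffold of tight junctions (7.28-fold, 30 tags), had the highest folds. Each of these held fewer tags than the median list 1 only peak.

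At 5′ ends the summits sat just before the start. The median summit of the 443 peaks was 71 bp before it (quartiles -154.5 and 30.5 bp), and that of the 1582 shared ones 69 bp before it. Within 250 bp of the start lay 348 of the 443 (78.6%, 74.5 to 82.1%), 73.6% of the shared (71.3 to 75.7%) and 65.7% of those in list 2 alone (63.8 to 67.5%). Upstream of the start lay 68.4%, 71.5% and 55.7%. In both measures the counting intervals of the list 1 only and the shared peaks overlapped, and those in list 2 alone stood lower.

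**Figure D3:**
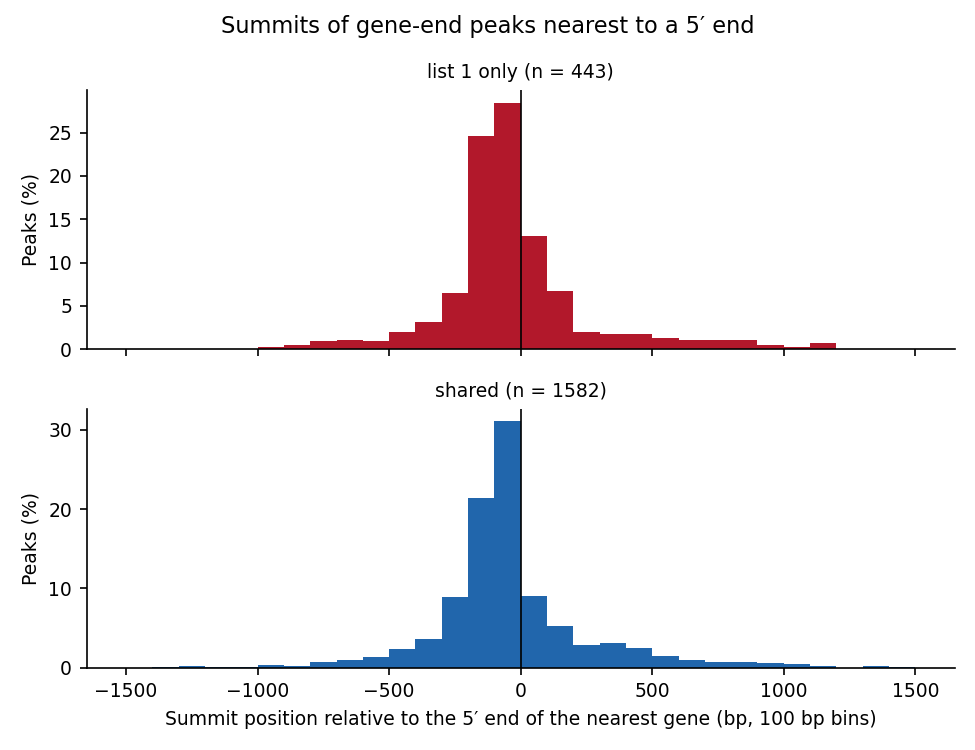
Position of the peak summit relative to the 5′ end of the nearest gene (x axis, bp, negative is upstream, 100 bp bins) as a percent of peaks (y axis), for 443 list 1 only and 1582 shared gene-end peaks nearest to a 5′ end. Both histograms are highest just upstream of the start, with medians of -71 and -69 bp.

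The E-box hexamer CACGTG, searched on both strands, was far less frequent at list 1 only gene-end peaks than at shared ones, and sequence was not part of the rule. A promoter window held the summit of 320 of the 609 peaks. Of these windows 32 had the hexamer (10.0%, 7.17 to 13.8%), against 481 of 1151 for shared gene-end peaks (41.8%, 39.0 to 44.7%) and 179 of 1435 for list 2 alone (12.5%, 10.9 to 14.3%). Among all 22131 promoter windows the share was 8.34%, and among the 8725 whose GC content fell in the interquartile range of the 320 it was 10.8% (10.2 to 11.5%). The interval of the list 1 only windows covers both of these shares, which include windows under shared peaks. It lies above the 5.45% (5.09 to 5.83%) of the 14330 windows of genes with no gene-end peak in either list, whose median GC content was lower (60.3%, against 66.7% in the 320).

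The extended form TCACGTG, which contains the hexamer, occurred in 13 of the 320 (4.06%, 2.39 to 6.83%), in 398 of the 1151 shared windows (34.6%, 31.9 to 37.4%) and in 4.44% of all windows. Windows of genes with no gene-end peak in either list gave 2.04% (1.82 to 2.28%), below the interval of the 320, and GC-matched windows 5.94%, within it. The loose E-box CANNTG, which takes in the hexamer and many other sites, was found in 54.7% (49.2 to 60.1%), 71.9% (69.2 to 74.4%) and 65.1%. For CANNTG, GC-matched windows gave 61.4% (60.4 to 62.4%) and windows of list 2 alone 59.5% (57.0 to 62.0%). Where the hexamer was present, it lay a median of 36.5 bp from the summit in list 1 only peaks and 17.5 bp in shared ones. Within 50 bp lay 18 of 32 (56.3%, 39.3 to 71.8%) and 390 of 481 (81.1%, 77.3 to 84.3%). Those 2 intervals do not overlap.

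Fold was compared bin by bin, because the shared peaks reach higher folds. Below 5-fold the hexamer occurred in 16 of 127 list 1 only windows (12.6%, 7.91 to 19.5%) and in 48 of 351 shared windows (13.7%, 10.5 to 17.7%). From 5 to below 6 it occurred in 7 of 103 (6.80%, 3.33 to 13.4%) and 54 of 236 (22.9%, 18.0 to 28.6%), and from 6 to below 8 in 6 of 76 (7.89%, 3.67 to 16.2%) and 138 of 278 (49.6%, 43.8 to 55.5%). At 8 and above it occurred in 3 of 14 (21.4%, 7.57 to 47.6%) and 241 of 286 (84.3%, 79.6 to 88.0%). The share climbed with fold in the shared peaks, and the intervals of the list 1 only and the shared windows overlapped only below 5-fold. Windows of list 2 alone, binned by list 2 fold, gave 8.08%, 8.91%, 17.3% (13.6 to 21.8%) and 33.1% (25.3 to 41.8%). In every bin their interval overlapped that of the list 1 only windows, and from 5-fold upward it lay below that of the shared ones.

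Within the 320 windows, the hexamer share varied little with tags or FDR. It was present in 10.3% of windows under peaks of fewer than 60 tags and 9.52% of those with 60 or more, where the shared peaks gave 28.9% and 45.9%. At an FDR of 100% the shares were 11.0% for list 1 only and 22% for shared peaks, and below it 8.33% and 53.2%. List 1 only peaks with the hexamer had a median of 4.99-fold and 51 tags, and those without it 5.29-fold and 53.5 tags. The values of both kinds overlapped almost entirely.

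The 32 peaks with the hexamer lay at genes of varied function. After the 4 shown above came FAM117B (7.34-fold), DFFA, the inhibitor of an apoptotic nuclease (6.89-fold), XRN2, a nuclear exoribonuclease (6.87-fold), the facing ends of POLE3 and C9orf43 (6.25-fold) and HSF2, a heat shock factor (6.19-fold). SMAD3, a signal carrier of TGF-beta, had 4.65-fold with 109 tags, and VPS16, a tethering subunit for fusion with lysosomes, 4.80-fold with 87 tags. These 2 were picked out after their values were seen. RPL19 (5.48-fold), GNL3 (4.58-fold) and PSME3, a proteasome activator subunit (3.79-fold), belonged to classes described above.

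**Figure D4:**
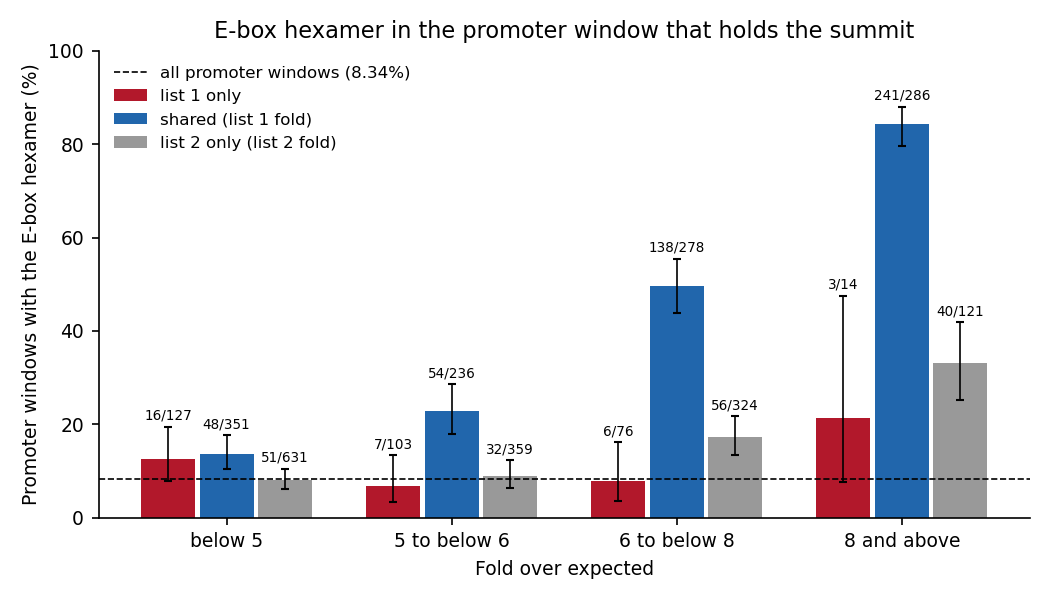
Percent of promoter windows holding the peak summit that contain CACGTG on either strand (y axis), by fold over expected (x axis), for list 1 only (red), shared (blue) and list 2 only (grey) gene-end peaks. Bars carry 95% Wilson intervals and the counts above them, and the dashed line is the 8.34% of all promoter windows. The blue bars climb from 13.7% to 84.3% and the grey bars from 8.08% to 33.1%, while the red bars stay between 6.80% and 21.4%.

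Other promoter elements differed less between the sets. GC boxes (GGGCGG) were found in 76.3% of the 320 windows and 80.3% of the shared ones, against 56.3% of all windows. The ETS core CCGGAAG, which GA-binding and ETS factors recognise, gave 20.9% (16.8 to 25.7%) and 21.5%, against 12.8%. CCAAT gave 43.8% and 46.5%, against 34.6%. The short site TGACGT of CREB and ATF factors gave 10.6% (7.70 to 14.5%) and 16.3% (14.3 to 18.6%), against 8.92%. Median GC content was 66.7%, 67.3% and 62.3%. In GC box, ETS core and CCAAT content the list 1 only windows were close to the shared ones. Among windows of matched GC content the shares were 75% for GC boxes and 17.5% for the ETS core, both within the intervals of the 320 windows (71.3 to 80.6% and 16.8 to 25.7%). For CCAAT the matched share was 33.4%, below the interval of the 320 (38.4 to 49.2%).

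The gap from a list 1 only gene-end peak to the nearest list 2 peak was 28820 bp at the median (quartiles 11750 and 60970 bp, range 10 to 869536 bp). The list 1 only peaks away from gene ends had nearly the same gaps, with a median of 29879 bp (quartiles 11411 and 67185 bp). A list 2 peak lay within 1 kb of 30 peaks (4.93%, 3.47 to 6.95%), within 10 kb of 134 (22%, 18.9 to 25.5%) and within 100 kb of 528 (86.7%). COTL1 (5.00-fold, 54 tags) missed a list 2 peak by 10 bp, PRPS1 (6.55-fold, 41 tags) by 26 bp and LARP1B (4.62-fold, 60 tags) by 44 bp. On the other side of the rule, MTURN (5.44-fold, 53 tags) counted as shared through 13 bp, the smallest overlap among gene-end peaks. These 4 peaks had like tags and folds on both sides of that limit.

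At the 1 kb limit, the outermost members were SNX30 (centre 985.5 bp from a gene end, 8.50-fold), OR2M2 (979.5 bp, 7.16-fold) and MPDZ (979 bp, 7.28-fold). Just beyond it were DCAF8L2 (1007.5 bp, 6.55-fold), ZEB1 (1020 bp, 5.46-fold) and CDH18 (1021 bp, 4.75-fold). Most of the set lay far inside, with a median of 140 bp, where the shared peaks had 145 bp.

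Of the 705 genes, 18 also had a shared gene-end peak (2.55%, against 11.5% of all genes), 39 one in list 2 alone (5.53%, against 19.2%), and 649 neither (92.1%). The rule removes peaks that overlap list 2, so low counts of this kind are largely built in and nothing is read from them. An end of 2 or more genes lay within 1 kb of 99 list 1 only peaks (16.3%, 13.5 to 19.4%) and of 411 shared ones (21.6%, 19.8 to 23.5%). After SEL1L2 with MACROD2, the highest folds at such places were SELENOH with TMX2 (8.58-fold, 75 tags), PRKRA with PJVK (8.37-fold, 59 tags) and GET1 with its readthrough gene (7.81-fold, 43 tags). GET1 encodes a receptor for tail-anchored proteins at the endoplasmic reticulum, and PRKRA an activator of the RNA-sensing kinase PKR.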

How the data were processed

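Per the file headers, each IP library was set against the input library of the same number in MACS 1.4.2 (p cutoff 1e-05), giving 2 peak lists. Duplicate tags at a position were dropped, which left 47165647 tags in IP 1, 46345938 in input 1, 43942638 in IP 2 and 43562726 in input 2, per the file headers. Bowtie2, deepTools, HOMER and GRCh38 are named in the submitters' processing notes without version or role.

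Tags in the authors' lists are a count of IP reads in each peak and are not scaled to depth. The deposited fold is the ratio of tags at the summit to those expected from input and local background. Scores as deposited are the −log10 of the caller's p multiplied by 10. The FDR, a percent, comes from swapping IP and input, per the file headers, and is used here only to describe peaks.

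Python 3.11.15 was used throughout, with pandas 2.3.3, numpy 2.4.6, scipy 1.17.1 and, for figures, matplotlib 3.10.9. Gene coordinates and 300 bp promoter windows came from RefSeq tables of GRCh38.p14. The windows gave strand and sequence for 15811 of the 19970 genes, so peaks at the others carry neither. Exon and intron positions were not used. In 1108 of 1108 overlapping windows of opposite strand the sequences matched as reverse complements. Motifs were searched on both strands. The steps were tested on simulated data. The 95% Wilson intervals reflect counting error alone. No test between lists was made.

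The members and the 37 gene lists (15 by hand, 22 by symbol pattern) were chosen with earlier results of these data known. Genes named were the 10 members of highest fold, the 5 each of most tags, greatest width and lowest FDR, the 5 of highest fold at several gene ends, those nearest the limits of the rule, up to 4 per class, the histone genes, USF1 and USF2, and a few genes that this rule takes are not reported here. The 5 of highest fold at 3′ ends, the genes of hexamer windows and the shared peaks shown were chosen after values were seen or by the rule for sequences. Alternatives were other distances, summits, overlap rules, thresholds, nearest genes and windows.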

Additional observations from a re-analysis of the deposited data

How the results depend on the processing

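The set numbered 609 peaks and would number 1081 with a 5 kb limit, 20 with a fold of at least 8, 102 with a score of at least 100 and 2516 without replicate 2, which leaves every gene-end peak of list 1. Without replicate 1 there is no list 1 and no value. It numbered 525 to 627 with a 500 bp limit, summits for centres, 50% cover as overlap or no list 2 peak within 1 kb. The share below the shared median in tags (84.6%) was 87.4% at 5 kb and 90.2% at a score of at least 100. In width (75.4%) it was 79.1% at 5 kb. In fold (64.7%) it was 60.2% at 5 kb and 78.4% at that score, and the cause was not tested. Histone genes numbered 19, but 11 by the nearest gene alone and 8 where no list 2 peak lay within 1 kb. Zinc finger genes numbered 34, and 82 without replicate 2, which counts shared peaks too. The 3′ end share (12.2 to 13.1%), the hexamer share (9.22 to 10.3%) and the share within 10 kb of a list 2 peak (20% by summits) stayed within their counting intervals under the alternatives run for each. Those without histone peaks, those with no list 2 peak within 1 kb for classes and hexamer, the bins by fold, tags and FDR, the motifs besides the E-box and the GC-matched windows were chosen after seeing the data. No paired analysis was possible because the deposited peaks were called within pairs of IP and input libraries and no result here comes from a test. With 1 list per IP, a difference between the lists has no replicate check.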

Other observations

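Non-coding genes lay under some list 1 only gene-end peaks as well. A long non-coding RNA gene overlapped 127 of the 609 (20.9%, 17.8 to 24.3%) and 456 of the 1907 shared ones (23.9%, 22.1 to 25.9%). MicroRNA genes overlapped 5 (0.821%) and 25 (1.31%), transfer RNA genes 3 and 9, and small nuclear RNA genes 2 and 3. The 2 small nuclear RNA genes were RNU12, of the minor spliceosome, and RNU6-2, of the major one. Of the peaks over microRNA genes, the one at C18orf32, which covers MIR1539, had 6.92-fold with 53 tags. The peak at EP300, which covers MIR1281 and belongs to a histone acetyltransferase gene, had 6.25-fold with 31 tags. These genes were chosen after their values were seen.

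Chromosomes differed in the share of their list 1 gene-end peaks that were unshared. It was highest on chromosome 6, with 46 unshared beside 80 shared (36.5%, 28.6 to 45.2%), and lowest on chromosome 16, with 20 beside 108 (15.6%, 10.3 to 22.9%), where the whole of list 1 gave 24.2%. Without the peaks at histone genes, chromosome 6 had 36 of 111 (32.4%, 24.4 to 41.6%). These are the extremes of 23 chromosomes read side by side, with no test.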
